A study of Thermothelomyces thermophilus with 18 samples.

Results

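The comparison described here is the carbon-source response of ΔMttrc-1, a mutant of the thermophilic fungus Myceliophthora thermophila, measured by RNA-seq of mycelium after 4 h on Avicel, a microcrystalline cellulose, against 4 h on starch. It uses 6 of the 18 libraries of the series, 3 per carbon source, chosen by strain, carbon source and time in their labels. ΔMttrc-1 is a single deletion strain made from the wild type with CRISPR-Cas9 and carries a deletion of Mycth_90344, which encodes the transcription factor MtTRC-1. The 6 libraries of the wild type MtWT under the same conditions are set beside it, and the 6 libraries taken after 6 h on Avicel give side values. All mycelium, of either strain, had first grown for 16 h in 2% glucose at 45 °C and was then washed and moved to 2% Avicel or 2% starch. The question was which part of the shift from starch to cellulose the fungus still made at 4 h without MtTRC-1.

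Growth on cellulose depends on secreted enzymes that work in steps. Endoglucanases cut cellulose chains internally, cellobiohydrolases release cellobiose from chain ends, lytic polysaccharide monooxygenases (LPMOs) break crystalline chains by oxidation with electrons that cellobiose dehydrogenases can supply, and beta-glucosidases split cellobiose to glucose. Genes of these enzymes are kept low in many filamentous fungi while easily used sugars are at hand, and are transcribed strongly on cellulose. Because the enzymes pass through the endoplasmic reticulum (ER), their production loads the machinery of protein folding and translocation, which the unfolded protein response (UPR) adjusts through a transcription factor of the HAC1 type. Starch, in contrast, is degraded by enzymes that include glucoamylase and alpha-glucosidases.

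Levels are given as CPM, a gene's count divided by the size of its library after TMM scaling, and a gene was called higher or lower when the edgeR quasi-likelihood test gave a Benjamini-Hochberg adjusted p under 0.05 over the 8573 genes tested and the absolute log2 fold change was over 1. The 6 libraries held 18208283 to 22064646 counts. The 10 most abundant genes took 9.87% to 10.2% of the counts on Avicel and 6.37% to 6.39% on starch, and the TMM factors were 0.797 to 0.822 on Avicel and 1.148 to 1.151 on starch. With library totals in place of these factors the median log2 change over all genes moved from -0.06 to -0.56, so log2 fold changes within the strain are relative to the bulk of genes, and absolute levels cannot be told from them. Libraries on glucose or without a carbon source were not used here, and a higher level on Avicel cannot be told apart from a lower level on starch. Transcripts of the deleted gene were not analysed here, which leaves the strain names as the labels give them. The study describes the 3 libraries of a group as independent biological replicates, and no pair of them matched within sampling noise. The chi-square per degree of freedom between 2 ΔMttrc-1 libraries was 6.655 to 17.18 on Avicel and 2.165 to 2.265 on starch. At this depth such a check cannot tell separate cultures from repeated libraries of a culture. Descriptions of gene function were at hand for 1456 of the tested genes (17%), and the other genes are named by their locus tag alone.

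In ΔMttrc-1, 733 genes were higher on Avicel than on starch, which is 8.55% of the genes tested, and 722 were lower, which is 8.42%. Higher calls made up 50.4% of all calls under TMM scaling and 16.6% with library totals, where 387 genes were higher and 1942 lower. Among genes with a description, the steepest increases were those of LPMO and GH11 genes, while the glucoamylase gene, several transporter and cytochrome P450 genes and the UPR gene Mthac-1 were lower. The libraries of the carbon sources did not overlap for 75.9% of all genes tested, so a gap between groups is common in these data and was read together with its size. The plot of called shares sets each gene list beside all genes tested.

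**Figure D1:**
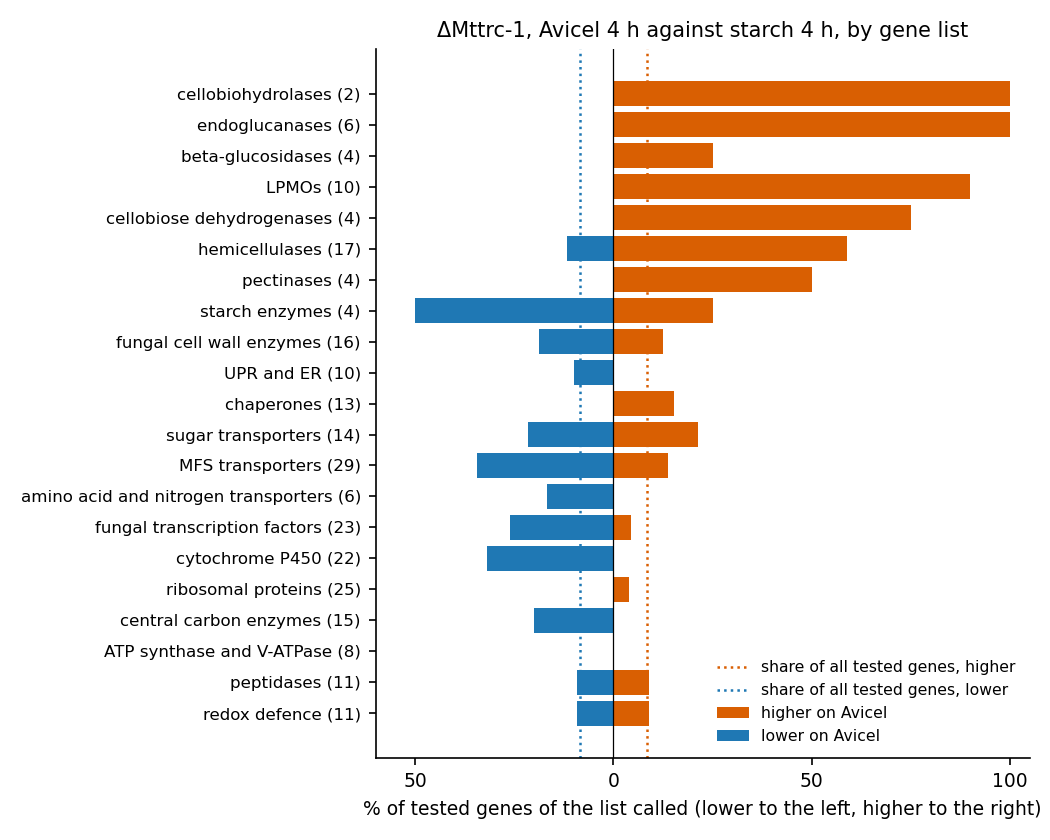
Share of each gene list called higher (orange, to the right) or lower (blue, to the left) on Avicel than on starch at 4 h in ΔMttrc-1, in % of the tested genes of the list, whose number stands in brackets. Dotted lines give the shares of all 8573 tested genes, 8.55% higher and 8.42% lower. All 6 endoglucanase genes were higher, and 7 of 22 cytochrome P450 genes were lower.

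Both cellobiohydrolase genes were far higher on Avicel in the mutant, where 8.55% of all tested genes were higher. Transcript levels of cbh-1 (Mycth_109566) stood at 4644, 4727 and 5112 CPM in the 3 Avicel libraries and at 45.7, 45.9 and 47.2 CPM in the 3 starch libraries. On the log2 scale the change was 6.71 ± 0.063 (SE), and edgeR gave an adjusted p of 5.67e-31. The groups lay apart by far more than the spread between libraries. The transcripts of cbh-2 (Mycth_66729) were at 3878, 4396 and 4649 CPM on Avicel and at 17, 20.1 and 19.4 CPM on starch, a log2 fold change of 7.84 ± 0.10 with an adjusted p of 2.17e-23. In MtWT the same comparison gave 8.19 ± 0.066 for cbh-1 and 7.47 ± 0.10 for cbh-2. The response of cbh-1 was smaller in the mutant, with a difference of -1.48 ± 0.072 on the log2 scale (edgeR adjusted p 2.17e-15), whereas the difference for cbh-2 was 0.37 ± 0.12, below the fold threshold. The level of cbh-1 on Avicel averaged 4828 ± 249.7 CPM in ΔMttrc-1, where MtWT had 19009 ± 1391 CPM (SD, n = 3). Summed over both genes, the means were 9135 CPM on Avicel in ΔMttrc-1 and 29581.5 CPM in MtWT, and 65.1 and 125 CPM on starch.

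All 6 endoglucanase genes were higher on Avicel in ΔMttrc-1, beside 8.55% of all tested genes. Their median log2 fold change was 3.71, beside -0.06 over all genes. The GH5 gene gh5-1 (Mycth_86753) was at 3550, 3902 and 4059 CPM on Avicel and 47, 46.6 and 45.3 CPM on starch, a log2 fold change of 6.37 ± 0.074. Its response in MtWT was 6.36 ± 0.073, and the difference between the strains was 0.01 ± 0.084, although its levels on both carbon sources were higher in MtWT, at 10252 ± 1095 CPM on Avicel and 125 ± 4.36 CPM on starch (SD, n = 3). The other endoglucanase genes, Mycth_111372, Mycth_76901, Mycth_116157, Mycth_109444 and Mycth_2090891, had log2 fold changes of 6.56, 5.22, 2.19, 1.68 and 1.51. The difference between the strains was called for Mycth_109444, at -1.02 ± 0.10, a call that was lost with library totals and when any of 3 single libraries was left out. Mycth_2090891, described as Barwin-related, was the endoglucanase gene with a higher mean in ΔMttrc-1 than in MtWT on both carbon sources, 2061 against 478 CPM on Avicel and 724 against 200.03 CPM on starch. The study named cbh-1, cbh-2, gh5-1, Mycth_76901 and most of the other leading cellulase genes as lower in ΔMttrc-1 than in MtWT on these same libraries. Their lower levels in ΔMttrc-1 and their differences between the strains are therefore not independent evidence. The lists were also chosen with earlier results of these data known, which limits the reading of their direction.

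**Figure D2:**
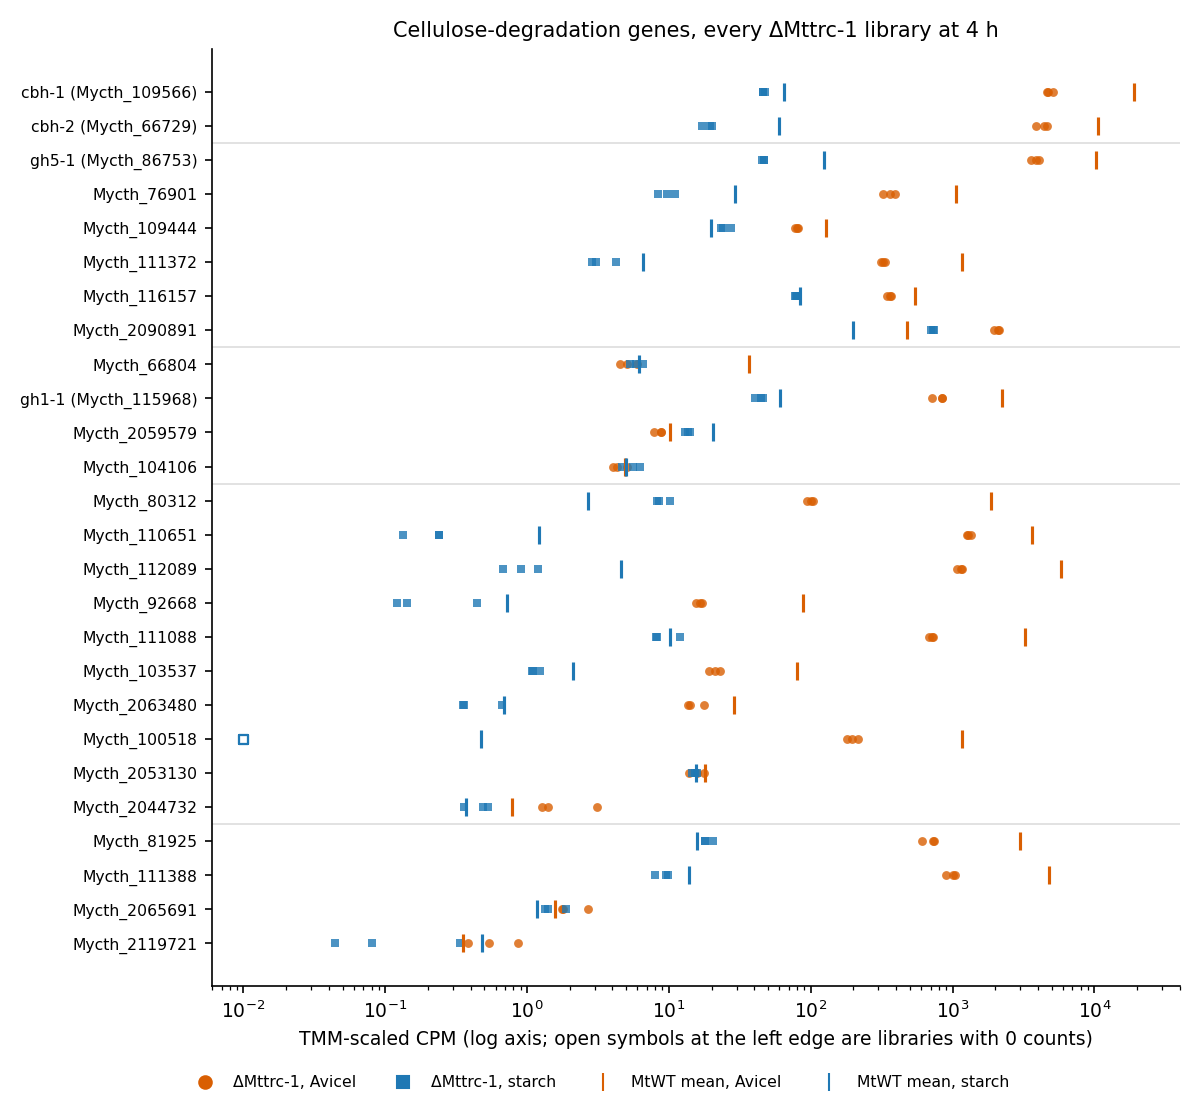
Levels of the genes of cellulose degradation in TMM-scaled CPM on a log axis, with a point for each of the 3 ΔMttrc-1 libraries on Avicel (orange circles) and on starch (blue squares) at 4 h, and vertical ticks for the MtWT means. From top to bottom the blocks are cellobiohydrolases, endoglucanases, beta-glucosidases, LPMOs and cellobiose dehydrogenases. Circles and squares lie apart in most rows, while Mycth_66804, with a mean of 5.16 CPM on Avicel and 5.91 CPM on starch, and Mycth_2053130, with 15.7 and 15.1 CPM, overlap.

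Of the 10 LPMO genes, 9 were higher on Avicel in ΔMttrc-1 and none was lower, beside 8.55% and 8.42% of all genes. The list median was 5.57, also with the fold of Mycth_100518 set to its lower bound. Mycth_100518, described as a GH61W protein, had 0 counts in the 3 starch libraries and 9494 counts in the 3 Avicel libraries, where it stood at 181, 197 and 217 CPM. Set against a floor of 3 counts over the starch group, it was at least 4498-fold higher on Avicel. Mycth_110651 was at 1256, 1354 and 1291 CPM on Avicel and 0.240, 0.133 and 0.239 CPM on starch. Its log2 fold change of 12.59 rests on 14 starch counts in all. Mycth_112089 was at 1072, 1141 and 1162 CPM on Avicel and 0.681, 1.19 and 0.908 CPM on starch. Its log2 fold change of 10.25 rests on 63 starch counts. These 3 genes were close to silent on starch, and their groups did not overlap. In MtWT the changes of Mycth_110651 and Mycth_112089 were 11.55 and 10.30. The means of Mycth_112089 were lower in the mutant, at 1125 against 5787 CPM on Avicel and 0.928 against 4.58 CPM on starch. For Mycth_110651 the increase was called as larger in the mutant than in MtWT, although its means were lower in the mutant. They were 1300 against 3639 CPM on Avicel and 0.204 against 1.21 CPM on starch, the latter on 14 and 92 counts in all. The responses were 1.05 ± 0.25 apart on the log2 scale (edgeR adjusted p 0.00875). This call was lost without ΔMttrc-1 starch replicate 2 (0.82) or MtWT starch replicate 1 (0.94), and on log2(RPKM + 1) the difference was -0.66. Mycth_100518 was also called for a larger increase, but its fitted value rests on 0 starch counts and is not given. In MtWT its log2 fold change was 11.24, on 36 starch counts. The call depends on the fitted value, so a larger increase in the mutant is not shown. The mean of Mycth_100518 on Avicel was 198 CPM in the mutant and 1162 CPM in MtWT. Mycth_111088, Mycth_92668, Mycth_2063480, Mycth_103537 and Mycth_2044732 had log2 fold changes of 6.23, 6.09, 5.05, 4.21 and 2.06 in the mutant. Of the 10 differences between the strains, 3 were called as lower in ΔMttrc-1 and 2 as higher, beside 10.2% and 9.18% of all genes. The lower ones were those of Mycth_80312, Mycth_111088 and, at -1.03 ± 0.24, Mycth_103537. The higher ones were those of Mycth_110651 and Mycth_100518, with the limits given above. The call for Mycth_103537 was lost when any of 4 single libraries was left out. The gene not called on Avicel against starch, Mycth_2053130, was at 17.6, 13.8 and 15.7 CPM on Avicel and 15.8, 14.5 and 15.2 CPM on starch.

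The LPMO gene Mycth_80312 showed the widest gap between the strains among the genes of cellulose degradation. It was at 93.7, 99.9 and 103 CPM on Avicel and 8.26, 10.3 and 8.51 CPM on starch in ΔMttrc-1, a log2 fold change of 3.46 ± 0.087, and went from 2.67 ± 0.575 to 1857 ± 62.4 CPM (SD, n = 3) in MtWT, a change of 9.45 ± 0.11. The difference was -5.99 ± 0.14 (edgeR adjusted p 2.15e-20), and the mutant had the higher mean on starch and the lower mean on Avicel. A smaller difference in the same direction was found for Mycth_111088, at -2.07 ± 0.14.

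Cellobiose dehydrogenase genes were higher on Avicel too, with 3 of 4 called, beside 8.55% of all tested genes. Mycth_111388 was at 905, 1006 and 1036 CPM on Avicel and 9.54, 9.86 and 7.98 CPM on starch, a log2 fold change of 6.75 ± 0.084, and Mycth_81925 was at 608, 730.4 and 738 and 18, 17.9 and 20.6 CPM, with 5.20 ± 0.12. Their responses were smaller than in MtWT, with differences of -1.70 ± 0.11 and -2.35 ± 0.16 on the log2 scale. The third call, for Mycth_2119721 at 1.95, rested on means of 0.594 and 0.153 CPM, and was lost without Avicel replicate 2 or without starch replicate 1 or 2. Its difference from MtWT, 2.37 ± 0.95, was called as higher with an edgeR adjusted p of 0.0328, and was lost when any of 6 single libraries was left out.

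Beside 8.55% of all tested genes, 1 of the 4 beta-glucosidase genes was higher on Avicel in ΔMttrc-1. This was gh1-1 (Mycth_115968), at 715, 839 and 847 CPM on Avicel and 44.3, 46.2 and 40.7 CPM on starch, a log2 fold change of 4.19 ± 0.077 beside 5.20 in MtWT, and a difference of -1.003 that was called at the fold threshold and lost when any of 6 single libraries was left out. Mycth_66804, which the study names as a beta-glucosidase gene, was at 5.95, 5.03 and 4.48 CPM on Avicel and 5.89, 6.54 and 5.30 CPM on starch. Its groups overlapped in the mutant, with a log2 fold change of -0.19 ± 0.15 and an adjusted p of 0.277, whereas MtWT gave 2.56 ± 0.12, from 6.17 ± 0.309 to 36.4 ± 3.21 CPM (SD, n = 3). The difference between the strains was -2.75 ± 0.20, with an edgeR adjusted p of 5.39e-12. The 5 lists of cellulose degradation together took 1.79% of the counts on Avicel and 0.125% on starch in ΔMttrc-1, against 5.49% and 0.087% in MtWT. Without Mycth_2090891, an alternative chosen after seeing the data, the shares were 1.63% and 0.0418% in ΔMttrc-1 and 5.45% and 0.0638% in MtWT, so the order of the strains on starch turned.

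Hemicellulases open the xylan and xyloglucan that surround cellulose. In ΔMttrc-1, 10 of 17 tested genes of this list were higher on Avicel and 2 were lower, with a list median of 1.69. The shares over all tested genes were 8.55% and 8.42%. The GH11 gene Mycth_100068, of a family that holds xylanases, was at 403, 413 and 388 CPM on Avicel and 0.200, 0.0442 and 0.0478 CPM on starch. Its log2 fold change of 11.86 rests on 7 counts in all on starch. After 6 h on Avicel its mean was 15.3 CPM in ΔMttrc-1 and 1449 CPM in MtWT. The xylanase genes Mycth_112050 and Mycth_116553 changed by 6.79 ± 0.10 and 2.33 ± 0.064, and the acetylxylan esterase gene Mycth_2066457, whose enzyme removes acetyl groups from xylan, by 6.78 ± 0.099. These 3 responses were smaller than in MtWT, with differences of -1.31 ± 0.16, -1.78 ± 0.088 and -2.67 ± 0.24. The oligoxyloglucanase gene Mycth_116384 changed by 3.96. The GH43 gene Mycth_2064169 had a larger response in the mutant, with 3.38 ± 0.11 and a difference of 1.99 ± 0.15 from MtWT. Lower on Avicel were the carbohydrate esterase gene Mycth_105128, at -1.94, and Mycth_114497, described as a beta-galactosidase or glucuronidase gene, at -2.61, whose response differed from that of MtWT by -3.10. Of 4 pectinase genes, 2 were higher and none was lower, the polysaccharide lyase gene Mycth_102322 with 1.80 and the pectin lyase-like gene Mycth_110806 with 1.24, at means of 4.87 and 8.73 CPM on Avicel. With library totals 1 of them was called.

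Of the 4 starch enzyme genes, 1 was higher and 2 were lower on Avicel in ΔMttrc-1, with a median log2 change of -2.01. The shares over all tested genes were 8.55% and 8.42%. The glucoamylase gene glaA (Mycth_72393) was at 7.88, 8.80 and 10.9 CPM on Avicel and 97.1, 103 and 107 CPM on starch in ΔMttrc-1, and its log2 change of -3.49 ± 0.083 had an adjusted p of 2.22e-22 in edgeR. Mycth_2303089, an alpha-glucosidase gene, was at 0.882, 0.728 and 1.34 CPM on Avicel and 13.3, 13.4 and 13.1 CPM on starch, with -3.76 ± 0.17. Neither pair of groups overlapped. In MtWT the changes were -4.28 ± 0.077 and -5.49 ± 0.13, from starch means of 296 and 75.6 CPM. The decrease of Mycth_2303089 was smaller in the mutant, with a difference of 1.73 ± 0.29, and for glaA the difference was 0.79 ± 0.12, below the fold threshold. A further alpha-glucosidase gene, Mycth_2087807, had -0.54, and Mycth_104674 of family GH31, which also holds alpha-glucosidases, was higher on Avicel by 2.39 ± 0.15, a smaller increase than in MtWT, with a difference of -2.01 ± 0.22. The study had picked glaA and Mycth_2303089 on these libraries.

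Genes of the UPR and of protein entry into the ER were not higher on Avicel in ΔMttrc-1. Mthac-1 (Mycth_2310995), the gene of the HAC1-type transcription factor, was at 256, 237 and 258 CPM on Avicel and 591, 585 and 570.3 CPM on starch, and its log2 change of -1.22 ± 0.044 had an adjusted p of 2.04e-18 in edgeR. The groups were wide apart, and every Avicel library was the lower one. In MtWT, Mthac-1 went from 509 ± 17.7 CPM on starch to 839 ± 17.6 CPM on Avicel (SD, n = 3), a log2 fold change of 0.72 ± 0.043, and the difference between the strains was -1.94 ± 0.062 (adjusted p 3.23e-19). The ER chaperone gene grp78 (Mycth_2315513) was at 612, 679 and 643 CPM on Avicel and 1097, 1116 and 1119 CPM on starch in the mutant, with -0.79 ± 0.043, and sec62 (Mycth_2310016), of the translocation machinery, had -0.79 ± 0.046. Both had positive changes in MtWT, of 1.31 and 1.27, and the differences between the strains were -2.09 ± 0.061 and -2.06 ± 0.064.

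The protein disulfide isomerase gene pdi1 (Mycth_2296005), whose product forms disulfide bonds, was at 730.3, 806 and 803 CPM on Avicel and 736, 739 and 736 CPM on starch. The groups overlapped, with a log2 fold change of 0.08 ± 0.046 that turned to -0.42 with library totals, against 2.04 ± 0.048 in MtWT and a difference of -1.95 ± 0.066. For cnx1 (Mycth_2295005), which encodes the lectin chaperone calnexin, the values were -0.10 ± 0.039 in ΔMttrc-1 and 1.77 ± 0.040 in MtWT, a difference of -1.87 ± 0.055. The remaining genes, lhs1, mpd1, sec63 and the sec61 subunit genes Mycth_2314691 and Mycth_2073127, had log2 fold changes from -0.60 to -0.26 in the mutant and from 0.39 to 1.39 in MtWT. Of the 10 genes, 1 was lower and none was higher in ΔMttrc-1, with a list median of -0.40, and with library totals 4 were lower. Over all 8573 tested genes 8.42% were lower and 8.55% higher, and with library totals 1942 genes were lower. The count of 1 lower gene in 10 lies near the share of all genes. In MtWT 6 of the 10 genes were higher, which is set against 9.95% of all tested genes, with a median of 1.15. The difference between the strains was called in 9 of the 10, all towards a lower response in ΔMttrc-1, where 10.2% of all tested genes were called in that direction. The count was 8 without ΔMttrc-1 Avicel replicate 1, MtWT Avicel replicate 1 or MtWT starch replicate 2. These genes too were selected by the study for their levels on Avicel in these libraries, which is not independent of this difference.

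**Figure D3:**
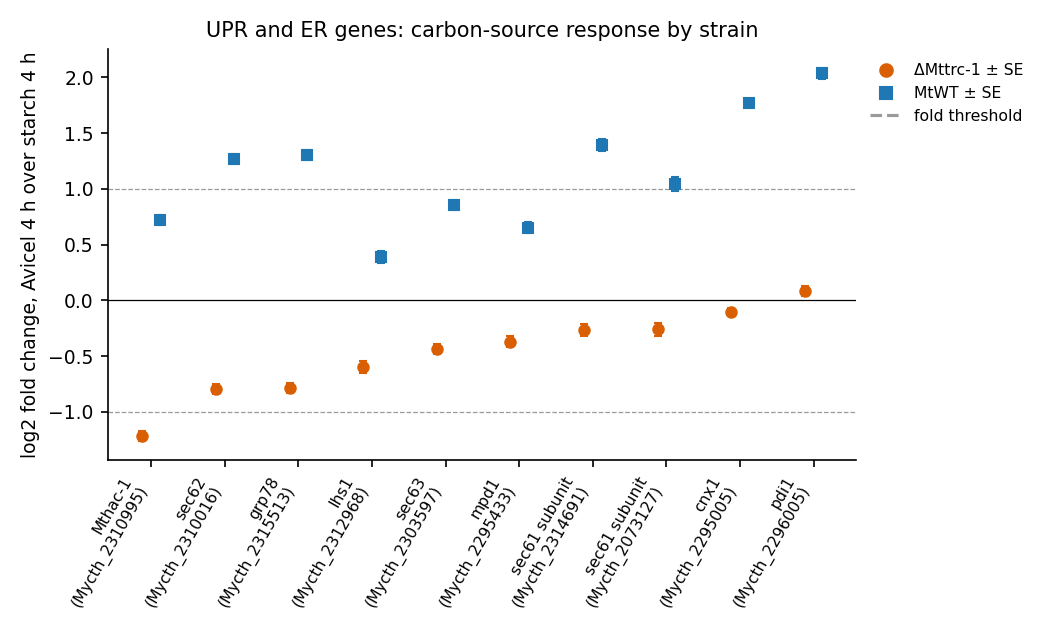
Log2 fold change from starch to Avicel at 4 h for 10 UPR and ER genes in ΔMttrc-1 (orange circles) and MtWT (blue squares), with standard errors worked back from the test (n = 3 libraries per group) and dashed lines at the fold threshold. The ΔMttrc-1 values lie between -1.22 for Mthac-1 and 0.08 for pdi1, and each lies below the MtWT value of the same gene.

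Of 13 genes described as heat shock proteins or chaperonins, 2 were higher on Avicel in ΔMttrc-1 and none was lower, with a median of 0.51. Over all genes 8.55% were higher and 8.42% lower. The mitochondrial-type chaperonin gene Mycth_2097570 (Cpn60) was at 1409, 1390 and 1403 CPM on Avicel and 549, 549 and 561 CPM on starch, a log2 fold change of 1.34, and the Hsp70 gene Mycth_112686 had 1.01. With library totals neither passed the fold threshold, at 0.84 and 0.51, and 2 other genes of the list were lower. Among 25 ribosomal protein genes, 1 was called, Mycth_2060529 at 1.53, and the median was 0.30. The control genes for actin (Mycth_2314852) and tef-1 (Mycth_2298136), a translation elongation factor, had log2 fold changes of 0.55 and 0.67, under the threshold.

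Uptake of sugars is the step after their release, and the sugar transporter list split. On Avicel in ΔMttrc-1, 3 of 14 genes were higher and 3 lower, beside 8.55% and 8.42% of all genes. In the test against the fold threshold 1 was lower. Mycth_114107 was at 749.9, 774 and 822 CPM on Avicel and 9.30, 8 and 8.41 CPM on starch, a log2 fold change of 6.51 ± 0.082, beside 7.60 ± 0.083 in MtWT and a difference of -1.09 ± 0.11. Mycth_108924 was at 293, 289 and 312 CPM on Avicel and 134, 134 and 134 CPM on starch, with 1.15 ± 0.058. In MtWT it went the opposite way, by -2.71 ± 0.066, from 167 ± 6.66 CPM on starch to 25.6 ± 2.58 CPM on Avicel (SD, n = 3), a difference between the strains of 3.86 ± 0.088. The mutant's own change fell below the fold threshold with library totals, at 0.65. Mycth_108044 was at 0.606, 0.662 and 0.870 CPM on Avicel and 21.2, 23.2 and 20.6 CPM on starch, with -4.93 ± 0.23 and a difference of -4.20 from MtWT, and Mycth_112491 changed by -1.11. The increase that MtWT showed for Mycth_104673, 4.23 ± 0.20, was smaller in ΔMttrc-1, where the change was 0.82, a difference of -3.41 ± 0.33.

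Of 29 tested genes of other major facilitator superfamily (MFS) transporters, 4 were higher and 10 lower on Avicel, beside 8.55% and 8.42% of all genes. The median was -0.46, and 6 were lower in the test against the fold threshold. The decrease of Mycth_107763 was the steepest of all ranked genes. Its level was 0.551, 0.0662 and 0 CPM on Avicel and 84.3, 81.6 and 89 CPM on starch in ΔMttrc-1. The log2 fold change of -8.51 rests on 11 counts on Avicel. In MtWT the gene was higher on Avicel by 2.77, a difference of -11.28. Mycth_2059428 was a case of the reverse, at 112, 126 and 125 CPM on Avicel and 5.97, 6.01 and 5.45 CPM on starch in ΔMttrc-1, with 4.38 ± 0.10 against -1.98 in MtWT and a difference of 6.36. Mycth_2118002 had 1.89 in the mutant and differed by 5.20.

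Transcription factor genes were mostly lower on Avicel where they were called. Of 23 genes described as fungal transcription factors, 1 was higher and 6 were lower, beside 8.55% and 8.42% of all genes. The median was -0.57. With library totals 13 were lower, and in the test against the fold threshold 3. Mycth_117146 was at 92.5, 107 and 100.1 CPM on Avicel and 474, 468 and 471 CPM on starch, a log2 fold change of -2.24 ± 0.088 and a difference of -1.90 ± 0.12 from MtWT. The gene that was higher, Mycth_2058263, was at 184, 167 and 166 CPM on Avicel and 34.1, 33.8 and 33.4 CPM on starch, with 2.35 ± 0.080 beside 1.96 in MtWT. Mycth_2057132 changed by -2.21 at 5.04 CPM on starch.

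Cytochrome P450 enzymes oxidise lipids, secondary metabolites and foreign compounds. In ΔMttrc-1, 7 of 22 tested genes were lower on Avicel and none was higher, beside 8.42% and 8.55% of all genes. Mycth_112815 was at 3.80, 3.38 and 3.28 CPM on Avicel and 46.3, 45.5 and 41.5 CPM on starch, a log2 fold change of -3.66 ± 0.10, and Mycth_112051 at 2.15, 3.51 and 5.42 and 32.1, 30.9 and 29.7 CPM, with -3.09 ± 0.17. In MtWT the changes were -0.86 and 0.90, and the differences between the strains were -2.80 ± 0.14 and -4.00 ± 0.22. Most other P450 genes of the list were measured at a few CPM or less, and the count of lower genes was 6 to 9 when single libraries were left out and 3 in the test against the fold threshold.

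Of 16 tested genes for enzymes of the fungus's own cell wall, 2 were higher and 3 lower, beside 8.55% and 8.42% of all genes. With library totals 1 was higher and 6 were lower. The chitinase gene Mycth_113450 was at 784, 949 and 975 CPM on Avicel and 63.6, 58.6 and 56.2 CPM on starch, a log2 fold change of 3.92 ± 0.071 that exceeded that of MtWT by 2.38 ± 0.091. The mixed-linked glucanase gene Mycth_107178 was at 3667 and 1653 CPM, with 1.15, and the alpha-mannanase gene Mycth_104570 had -3.24. The lowest log2 fold change in this list was -5.48, and the lowest difference between the strains was -7.78.

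In central carbon metabolism 3 of 15 genes were lower on Avicel in ΔMttrc-1 and none was higher, beside 8.42% and 8.55% of all genes. With library totals 5 were lower. A gene of the isocitrate lyase and phosphorylmutase family (Mycth_110871), which holds an enzyme of the glyoxylate cycle, was at 11.5, 8.27 and 8.50 CPM on Avicel and 34.7, 29.7 and 32.4 CPM on starch, a change of -1.76 ± 0.096, a smaller decrease than in MtWT, with a difference of 1.55 ± 0.14. Mycth_2090554, described as a glutamate or amino acid dehydrogenase gene, changed by -2.01 ± 0.048. The gene Mycth_109978 of the pyruvate carboxyltransferase family had -1.61 ± 0.045 and a difference of -1.33 ± 0.063 from MtWT. The L-lactate dehydrogenase gene Mycth_110317 was at 282, 277 and 262 CPM on Avicel and 293, 281 and 275 CPM on starch, and its change of -0.05 ± 0.11 stood against 2.78 ± 0.11 in MtWT, a difference of -2.83 ± 0.15. Among 11 genes of redox defence, the glutathione S-transferase gene Mycth_112025 was higher, at 2603, 2252 and 2276 CPM on Avicel and 622, 639 and 632 CPM on starch. Its log2 fold change of 1.91 ± 0.053 exceeded that of MtWT by 2.02 ± 0.074. The thioredoxin-like gene Mycth_2107379 was lower, at -3.72. None of the 8 ATP synthase and V-ATPase genes was called, and of 6 amino acid and nitrogen transporter genes and 11 peptidase genes 1 each was lower, with 1 peptidase gene higher, beside 8.42% lower and 8.55% higher over all genes. With library totals 3 of the transporter genes and 5 peptidase genes were lower, and no peptidase gene was higher. The test against the fold threshold called none of either list, and when single libraries were left out the peptidase counts ran from 0 to 2 higher, with 0 without Avicel replicate 1, and from 1 to 2 lower.

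The ranking of all called genes by fold added genes without a description. After the LPMO and GH11 genes above, the largest increases were those of Mycth_2303707, Mycth_48716, Mycth_81364, Mycth_85556, Mycth_98122, Mycth_33936, cbh-2 and Mycth_84164, with log2 fold changes from 7.58 to 9.45. Mycth_85556 was at 1306, 1247 and 1231 CPM on Avicel and 2.93, 2.52 and 2.63 CPM on starch, a change of 8.87 beside 9.08 in MtWT. Mycth_33936 was at 455 and 1.39 CPM and Mycth_84164 at 373 and 1.93 CPM. Each of the 12 genes of this ranking was also called higher in MtWT. After Mycth_107763, the largest decreases ran from Mycth_81817 at -6.23 to Mycth_2299806 at -4.16, with Mycth_2306150, Mycth_2142698, Mycth_90354, Mycth_2300047 and Mycth_2305531 between them. Mycth_2307990 was at 13.5, 12.7 and 13 CPM on Avicel and 613, 596 and 615 CPM on starch, and Mycth_73236 at 10.5, 10.6 and 10.8 and 428, 423 and 426 CPM. Both were called higher on Avicel in MtWT, by 1.33 and 3.45, and the differences between the strains were -6.87 and -8.77. Of the 12 genes with the largest decrease, 1 was also called lower in MtWT, Mycth_89127, at -4.51 in ΔMttrc-1 and -1.82 in MtWT.

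The 8 genes that took the most reads on Avicel in ΔMttrc-1 are given here whatever their function. Mycth_2314451 had the highest mean, at 22234 ± 2083 CPM (SD, n = 3), with a change from starch of 0.93, under the threshold. Mycth_2314727 was at 13762, 13249 and 12595 CPM on Avicel and 3152, 3152 and 3101 CPM on starch, a log2 fold change of 2.07 ± 0.055, and it was not called in MtWT, where it had -0.68, a difference of 2.76 ± 0.077. Mycth_112322, described as a globin gene, the family of oxygen-binding haem proteins, was at 12317 and 3919 CPM, with 1.65 and a difference of 1.10 ± 0.081. Mycth_108407, described as an aromatic-ring hydroxylase gene, was at 10312, 9474 and 9618 CPM on Avicel and 516, 531 and 514 CPM on starch, with 4.24 ± 0.11, a smaller increase than in MtWT, with a difference of -1.37 ± 0.13. The last, Mycth_2303328, changed by 2.75 beside 2.80 in MtWT. The other 3 of these 8 genes were neighbours on a chromosome.

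Neighbouring genes that moved together formed 8 runs of at least 5 consecutive tested genes called in the same direction, 5 of them higher and 3 lower on Avicel. A run of 6 genes on chromosome 4 was higher on Avicel in ΔMttrc-1, at a median log2 change of 4.30. It holds Mycth_11658, described as a transferase gene, Mycth_108317, with a phosphopantetheine attachment site as carrier domains of polyketide and peptide synthases have, Mycth_69746 and Mycth_82772. Mycth_69746 was at 11880, 10874 and 10804 CPM on Avicel and 536, 547 and 543 CPM on starch, a log2 fold change of 4.37 ± 0.055, Mycth_108317 at 12657, 11829 and 14107 and 620.3, 631 and 632 CPM, with 4.36 ± 0.11, and Mycth_82772 at 12263, 11540 and 11578 and 540.4, 552 and 565 CPM, with 4.42 ± 0.068. All Avicel libraries were far above all starch libraries. In MtWT these 3 genes were lower on Avicel, with -1.76, -1.29 and -1.47, and the differences between the strains were 6.13 ± 0.073, 5.65 ± 0.15 and 5.88 ± 0.090. Mycth_11658 and Mycth_82782 differed by 5.54 and 2.02, whereas the SANT-domain gene Mycth_2064854 at the edge of the run, with 1.35 in ΔMttrc-1 and 0.85 in MtWT, was not called for a difference, and with library totals its change in ΔMttrc-1, 0.84, was under the fold threshold. The run took 4.25% of all counts on Avicel at 4 h in ΔMttrc-1, 0.603% on starch and 0.422% on Avicel at 6 h, while the MtWT libraries had 0.354% on Avicel at 4 h, 1.06% on starch and 1.54% on Avicel at 6 h.

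A run of 10 genes on chromosome 3 was higher on Avicel in both strains, and it reached lower levels in ΔMttrc-1. Its median over genes was 35.2 CPM on Avicel and 0.295 CPM on starch in the mutant, and 932 CPM and 0.826 CPM in MtWT. Mycth_115957, described as a 2OG-Fe(II) oxygenase gene, had 397 counts on Avicel and 1 count on starch in ΔMttrc-1. The ratio of its levels was 564, and its 95% counting interval ran from 101 to 22345. Its mean on Avicel was 8.27 CPM in the mutant and 2883 CPM in MtWT. Mycth_50128 was at 11.9, 9 and 8.76 CPM on Avicel and 0.160, 0.486 and 0.191 CPM on starch in ΔMttrc-1. Its log2 fold change was 5.14 on 19 starch counts, against 11.32 on 33 starch counts in MtWT, a difference of -6.18 ± 0.85. Mycth_2303709 had 4.39 and a difference of -5.85 ± 0.45. Further genes of the run, Mycth_2303707, Mycth_81364 and Mycth_48716, had log2 fold changes above 9 that rest on 4 counts each on starch, and their differences from MtWT were not called. After 6 h on Avicel the median of the run was 0.593 CPM in ΔMttrc-1 and 2.29 CPM in MtWT.

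**Figure D4:**
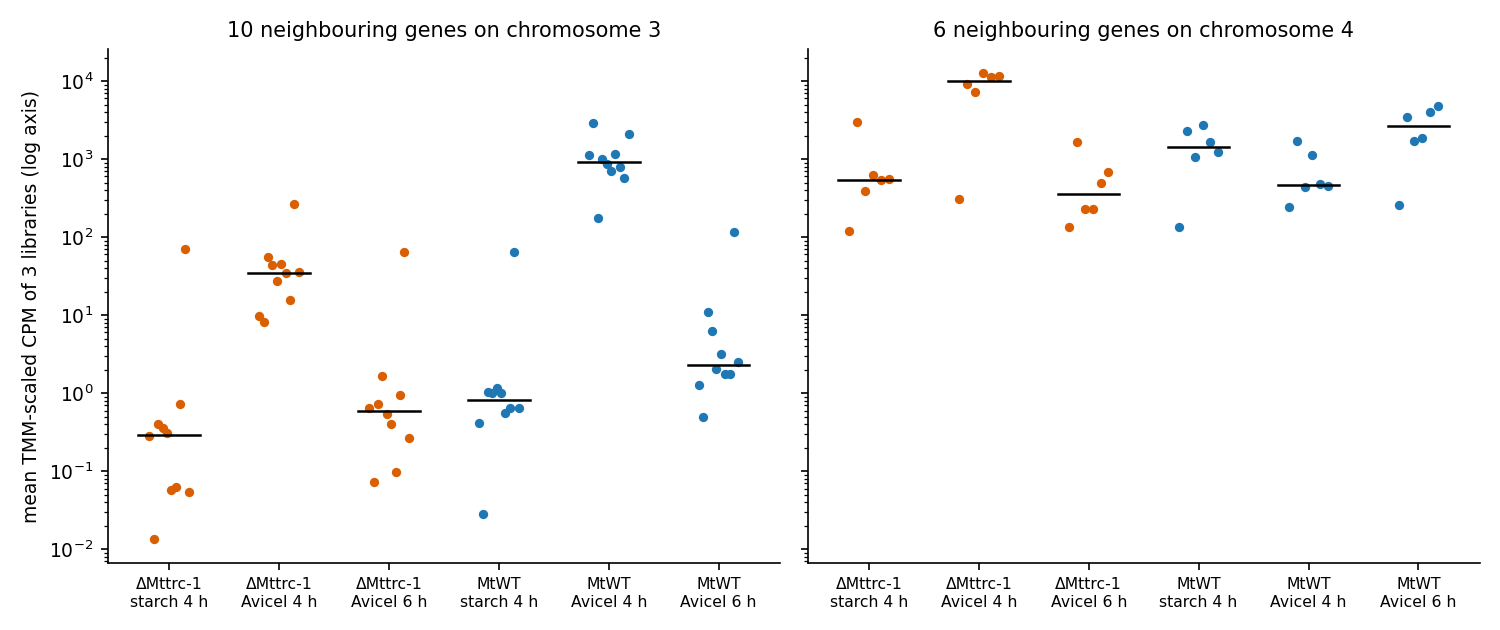
Mean TMM-scaled CPM (log axis) of each gene, over 3 libraries, in the 2 longest runs of neighbouring genes called higher on Avicel at 4 h in ΔMttrc-1, by strain, carbon source and time, with a bar at the median over genes. The 6 genes of the chromosome 4 run are highest in ΔMttrc-1 on Avicel at 4 h, with a median of 10140 CPM. The 10 genes of the chromosome 3 run have medians of 35.2 CPM in ΔMttrc-1 and 932 CPM in MtWT at that time.

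The runs of genes that were lower on Avicel had 5 genes each. Among them, a run on chromosome 1 holds Mycth_112805, with a condensation domain as in peptide synthases, an ABC transporter-like gene (Mycth_104717), Mycth_59137, a crotonase-family gene (Mycth_112802) and the MFS gene Mycth_109499. Its median log2 fold change was -3.01, against -0.30 in MtWT. The other runs, on chromosomes 1 and 2, had medians of -1.98 and -1.55. Mycth_112805 was at 0, 0.199 and 0.401 CPM on Avicel and 8.26, 10.3 and 10.2 CPM on starch in ΔMttrc-1. Its log2 fold change of -5.63, which rests on few Avicel counts, differed by -6.74 from MtWT.

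Set against MtWT across all genes, the response of ΔMttrc-1 was partly shared. In MtWT 853 genes were higher on Avicel, 9.95% of those tested, and 840 were lower, 9.8%. Of the 853 genes, 329 (38.6%) were also higher in ΔMttrc-1, and these are 44.9% of the 733 genes higher in the mutant. Of the 840 genes, 210 (25%) were also lower in ΔMttrc-1, and these are 29.1% of the 722. Among the 853 genes, 94 (11%) were called lower in the mutant, beside 8.42% of all tested genes. Among the 840 genes, 59 (7.02%) were called higher, beside 8.55% of all tested genes. Both shares lie near those of all tested genes. The 853 genes had a median log2 fold change of 1.56 in MtWT and 0.59 in ΔMttrc-1, where the median in MtWT is raised by the choice of the genes in that strain. The log2 fold changes of the strains, which share no library, had a Pearson correlation of 0.515 and a Spearman correlation of 0.361 across the 8573 genes. Both values are across genes, which are not independent replicates, and are a description of the profiles.

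The test of the difference itself called 871 genes with a lower response in ΔMttrc-1, 10.2% of those tested, and 787 with a higher response, 9.18%. Of the 853 genes higher in MtWT, the response was smaller in ΔMttrc-1 for 411 and larger for 22, and the difference was not called for 420. Of the 733 genes higher in ΔMttrc-1, 345 were not called in MtWT, and for 203 of these the difference was called. Of the 722 genes lower in ΔMttrc-1, 418 were not called in MtWT, and the difference was called for 255. Each of these sets was chosen by calls from libraries that also enter the difference. That choice tilts the counts of called differences within each set. Opposite calls included the oxidoreductase gene Mycth_112714, at 4.30, 3.38 and 3.61 CPM on Avicel and 52.4, 54.5 and 55.4 CPM on starch in ΔMttrc-1, with -3.83 ± 0.12 against 4.00 ± 0.11 in MtWT and a difference of -7.83. They also included the chloroperoxidase gene Mycth_2067982 and Mycth_2313641, which were higher on Avicel in ΔMttrc-1 by 3.25 and 2.71 and lower in MtWT by the same test, with differences of 5.80 and 5.76.

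**Figure D5:**
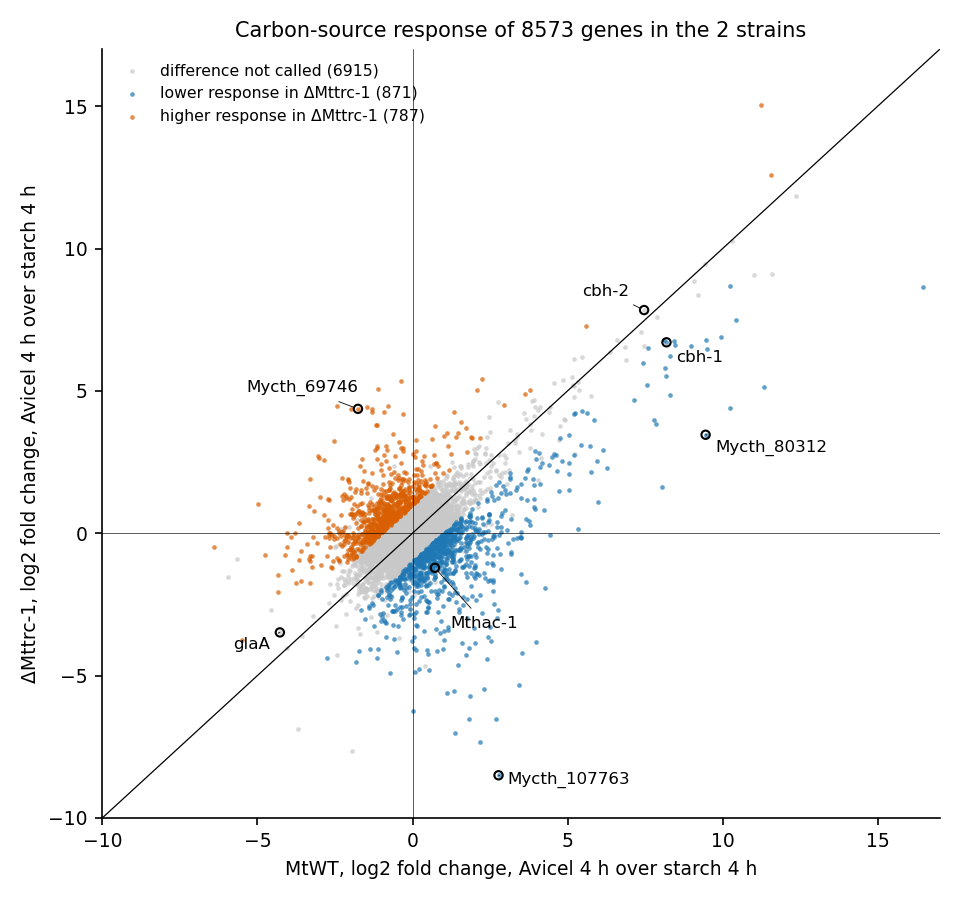
Log2 fold change from starch to Avicel at 4 h in MtWT (x axis) and ΔMttrc-1 (y axis) for 8573 tested genes, with the line of equal response. Blue points are the 871 genes with a called lower response in ΔMttrc-1, orange points the 787 with a higher response, and grey points the others. Named genes are circled, among them cbh-1 at 8.19 and 6.71, cbh-2 at 7.47 and 7.84, and Mycth_107763 at 2.77 and -8.51.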

How the data were processed

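Mycelial RNA of the 6 groups was sequenced as 150-bp paired-end reads, and the gene tables of the 18 libraries, with 17250057 to 24387079 counts each, were used as the authors deposited them. For each gene the authors deposited a raw count of reads, produced by TopHat2 2.0.8b and HTSeq 0.5.4p2 according to the submitters' processing notes, and an RPKM value. The methods of the study name other versions of these tools. No source used here gives the genome build by name or the strand setting, and overlapping or antisense genes may therefore share reads. The expression of the deleted gene is not analysed here.

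Counts were analysed in R 4.3.3 with the quasi-likelihood test of edgeR 4.0.16, with a robust fit, TMM scaling and edgeR's filter on low counts, which kept 8573 of 9109 genes and left out 0.00403% of the counts. The 18 libraries were fitted together as 6 groups, and the contrasts were Avicel against starch at 4 h in ΔMttrc-1, the same in MtWT, and the difference of the 2. P-values were Benjamini-Hochberg adjusted over the 8573 genes. Standard errors of log2 fold changes were worked back from the edgeR test, as the absolute change over the square root of the F statistic. They are approximate, and those of a difference do not follow from those of the 2 strains. For Mycth_110651 they were 0.095 in ΔMttrc-1, 0.079 in MtWT and 0.249 for the difference. Counting intervals and floors cover counting error only. Columns were assigned to libraries by sample titles, since the descriptions of MtWT replicate 3 repeat the name of replicate 2. Locus tags were matched to RefSeq (assembly ASM22609v1) for 9086 genes, for chromosome and gene order only, and descriptions were found for 1666.

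The 22 gene lists hold 273 genes. They, and the members described, were chosen with earlier results of these data known, and the cellulase, UPR and starch lists include genes the study picked on these libraries. Every gene of a list could be named. By rank, the genes that could be named were the 12 largest increases and decreases with a mean of at least 10 CPM in either group and no overlap, the 8 genes with the highest mean CPM on Avicel, the genes with the largest called differences between the strains, and runs of at least 5 neighbouring called genes. Alternatives were library totals, RLE size factors, DESeq2 1.42.0 with its size factors, no filter, fits of the compared libraries alone, a test against the fold threshold, a replicate block, limma 3.58.1 on log2(RPKM + 1) and log2(RPKM + 0.1), and leaving out each library. The edgeR step was tested on simulated data.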

Additional observations from a re-analysis of the deposited data

Results flagged for a closer look

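The response to the carbon source differed between the strains by the edgeR test of the difference itself for 871 genes with a lower and 787 with a higher response in ΔMttrc-1, and the values below are these differences on the log2 scale, ΔMttrc-1 minus MtWT.

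Lower responses in ΔMttrc-1 among genes of plant cell wall and starch degradation were found for the LPMO genes Mycth_80312 (-5.99) and Mycth_111088 (-2.07), the beta-glucosidase gene Mycth_66804 (-2.75), the cellobiose dehydrogenase genes Mycth_81925 (-2.35) and Mycth_111388 (-1.70) and cbh-1 (-1.48), and close to the fold threshold for the LPMO gene Mycth_103537 (-1.03), the endoglucanase gene Mycth_109444 (-1.02) and gh1-1 (Mycth_115968, -1 after rounding). The hemicellulase genes Mycth_114497 (-3.10), Mycth_2066457 (-2.67), Mycth_116553 (-1.78) and Mycth_112050 (-1.31) and the GH31 gene Mycth_104674 (-2.01) belong to the same group. In the UPR and ER list the differences were -2.09 for grp78, -2.06 for sec62, -1.95 for pdi1, -1.94 for Mthac-1 and -1.87 for cnx1.

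Among transporters and regulators, lower responses were found for the MFS gene Mycth_107763 (-11.28), the sugar transporter genes Mycth_108044 (-4.20), Mycth_104673 (-3.41) and Mycth_114107 (-1.09) and the transcription factor gene Mycth_117146 (-1.90). In metabolism they were found for the P450 genes Mycth_112051 (-4.00) and Mycth_112815 (-2.80), the L-lactate dehydrogenase gene Mycth_110317 (-2.83), Mycth_108407 (-1.37) and Mycth_109978 (-1.33). Further genes were Mycth_73236 (-8.77), Mycth_112714 (-7.83), Mycth_2307990 (-6.87), Mycth_112805 (-6.74), Mycth_50128 (-6.18) and Mycth_2303709 (-5.85).

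Higher responses in ΔMttrc-1 were found in the chromosome 4 run for Mycth_69746 (6.13), Mycth_82772 (5.88), Mycth_108317 (5.65), Mycth_11658 (5.54) and Mycth_82782 (2.02). Transporter genes with a higher response were Mycth_2059428 (6.36), Mycth_2118002 (5.20) and Mycth_108924 (3.86). Enzyme genes with a higher response were the chloroperoxidase gene Mycth_2067982 (5.80), the chitinase gene Mycth_113450 (2.38), the glutathione S-transferase gene Mycth_112025 (2.02), the GH43 gene Mycth_2064169 (1.99), the alpha-glucosidase gene Mycth_2303089 (1.73) and Mycth_110871 (1.55). The LPMO gene Mycth_110651 (1.05) and the cellobiose dehydrogenase gene Mycth_2119721 (2.37, at low counts) were also called as higher. So was the LPMO gene Mycth_100518, whose value is not given. With 0 starch counts in ΔMttrc-1, a larger response of that gene is not shown. The remaining genes were Mycth_2313641 (5.76), Mycth_2314727 (2.76) and the globin gene Mycth_112322 (1.10). In the test against the fold threshold the differences for Mycth_114107 (edgeR adjusted p 0.457), Mycth_112322 (0.242), Mycth_112050 (0.0768), Mycth_103537, Mycth_109444, gh1-1, Mycth_110651 and Mycth_2119721 were not called.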

How the results depend on the processing

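The counts of called genes in ΔMttrc-1 and MtWT depended on the processing, and the RPKM tests change the test, the scaling and the pseudocount together. With library totals, limma on log2(RPKM + 1) and limma on log2(RPKM + 0.1), 387, 312 and 382 genes were higher on Avicel in ΔMttrc-1 instead of 733, and 1942, 1378 and 1897 were lower instead of 722. In MtWT the same settings gave 432, 349 and 429 higher genes instead of 853, and 2414, 1780 and 2372 lower instead of 840. The test against the fold threshold left 529 higher and 374 lower genes in ΔMttrc-1 (58.6% higher), 618 and 411 in MtWT, and 453 higher and 539 lower responses in the difference between the strains. Leaving out single libraries gave 723 to 730 higher and 708 to 727 lower genes in ΔMttrc-1, 834 to 876 and 802 to 864 in MtWT, and 762 to 810 higher and 853 to 886 lower responses. DESeq2 called 762 higher and 706 lower genes in ΔMttrc-1.

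No pairing of the samples by replicate number was seen, though 3 libraries per group cannot exclude it. Deviations of same-numbered Avicel and starch libraries correlated at -0.058 to 0.004 in ΔMttrc-1 and at -0.19 to 0.016 in MtWT. Libraries with different numbers correlated at -0.038 to 0.055 in ΔMttrc-1 and at -0.06 to 0.191 in MtWT. With the replicate block 733 genes were higher and 724 lower in ΔMttrc-1, 1452 of the 1455 calls being kept.

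Of the named values, the direction turned for 4. The log2 change of pdi1 in ΔMttrc-1 was -0.42 with library totals and in both RPKM tests, that of Mycth_2053130 was -0.45, -0.43 and -0.46 there and ran from -0.039 to 0.14 when single libraries were left out (-0.039 without Avicel replicate 1), and the difference for gh5-1 ran from -0.035 to 0.105 when single libraries were left out. None of these was called. The called difference for Mycth_110651 was -0.66 on log2(RPKM + 1) and ran from 0.82 to 1.2 when single libraries were left out. With library totals grp78 (-1.29), sec62 (-1.30), lhs1 (-1.10) and Mycth_2087807 (-1.04) passed the fold threshold as lower, and Mycth_107178 (0.64), Mycth_108924 (0.65), Mycth_2097570 (0.84), Mycth_112686 (0.51), Mycth_2064854 (0.84), Mycth_110806 (0.73) and Mycth_2119721 (1.46, edgeR adjusted p 0.0679) were no longer called higher. The test against the fold threshold did not call Mycth_112491, Mycth_112686, Mycth_110806 or Mycth_2119721 in ΔMttrc-1. The causes were not tested. Genes with few counts on a carbon source, such as Mycth_107763 and, in the chromosome 3 run, Mycth_2303707, Mycth_81364 and Mycth_48716, have fold changes limited by depth.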

Other observations

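At 6 h on Avicel the genes of the cellulose degradation lists took 0.945% of the counts in ΔMttrc-1 and 3.49% in MtWT, below the 1.79% and 5.49% at 4 h. For 6 h no starch libraries were used here, so no carbon-source response can be given for it. In the UPR and ER list the share of counts in ΔMttrc-1 was 0.262% to 0.267% on Avicel and 0.499% to 0.502% on starch at 4 h, and in MtWT 0.669% to 0.710% and 0.379% to 0.392%, and these shares rest on library totals without TMM scaling.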
